A study of Danio rerio with 6 samples.

Results

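The 7 genes fli1, kdrl, tie1, tek, aqp8a.1, tal1 and lmo2 mark blood vessel endothelium and the progenitors shared by vessels and blood in the zebrafish embryo. They are 7 of the 8793 genes that the array used here reads under a single gene symbol. They were picked by their symbol in the platform annotation, which gave 8 probe sets, with fli1 read by 2 of them and each other gene by 1. The genes were proposed with results of the same comparison known, so their values in fogsk8 mutants and WT siblings are given as a description with no p-value, and the rule for calls is applied to them only to describe them.

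Gene expression was compared in whole zebrafish embryos at 24 hours post fertilization (hpf), in 3 samples of fogsk8 mutants and 3 samples of their WT siblings. The fogsk8 allele truncates the product of foggy/spt5 (supt5h), whose protein Spt5 both pauses RNA polymerase II and promotes its elongation. The embryos came from natural spawning, had their chorions removed by hand or with Pronase, and were otherwise untreated. As many mutants as WT siblings were pooled, and total RNA was extracted from each pool. Biotinylated cRNA of each pool was hybridized to its own single-colour Affymetrix Zebrafish Genome Array. Mutant embryos still carry some maternal Spt5 at this age, so the allele removes the zygotic product only. How many embryos made a pool, and the genotype of single siblings, were not stated. Values are GC-RMA values on the log2 scale, corrected for background and normalized between arrays, so a difference of 1 is a 2-fold change.

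Endothelial cells arise from lateral mesoderm together with blood, from progenitors in which the transcription factors Tal1 and Lmo2 act early. Cells that take the vessel fate switch on Ets factors such as Fli1 and then the receptors that read growth signals, among them the VEGF receptor Kdrl and the angiopoietin receptor family of Tie1 and Tek. At this age the heart beats and the trunk holds a simple loop of artery and vein from which the vessels between the somites sprout.

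The supt5h transcript was low in every mutant sample. Its probe set read 3.66, 3.70 and 3.81 in the 3 fogsk8 samples, against 7.42, 7.56 and 6.80 in the 3 WT samples (log2 fold change −3.54, SE 0.20, limma adjusted p = 0.000994). The position of the probes on the transcript, before or after the truncation, was not examined. Array medians were 5.08 to 5.15 and 10th percentiles 2.28 to 2.35, and a value under 3 is called near the floor here. Across probe sets, replicate 1 correlated with replicate 2 at 0.996 in fogsk8 and 0.997 in WT, and replicate 3 stood apart with 0.992 in fogsk8 and 0.991 in WT. A probe set or gene is called lower or higher in fogsk8 where the limma adjusted p is under 0.05 and the change is at least 2-fold.

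Transcripts of 4 of the 7 genes, fli1, kdrl, tie1 and aqp8a.1, were at least 2.52-fold lower in fogsk8 embryos than in WT siblings and met this rule, whereas tek, tal1 and lmo2 did not. None of the 7 was called higher. Over all 8793 genes, 4.09% were called, 3.20% lower and 0.898% higher. Over all 15502 probe sets, 3.62% were called, 2.87% lower and 0.748% higher. Since the genes were proposed from this comparison, nothing is read from the count of 4 beside these shares. The median log2 fold change of the 7 genes was −1.33, and that of all 8793 genes was 0.057. In whole-embryo RNA, fewer cells of a type and less RNA per cell cannot be told apart.

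**Figure D1:**
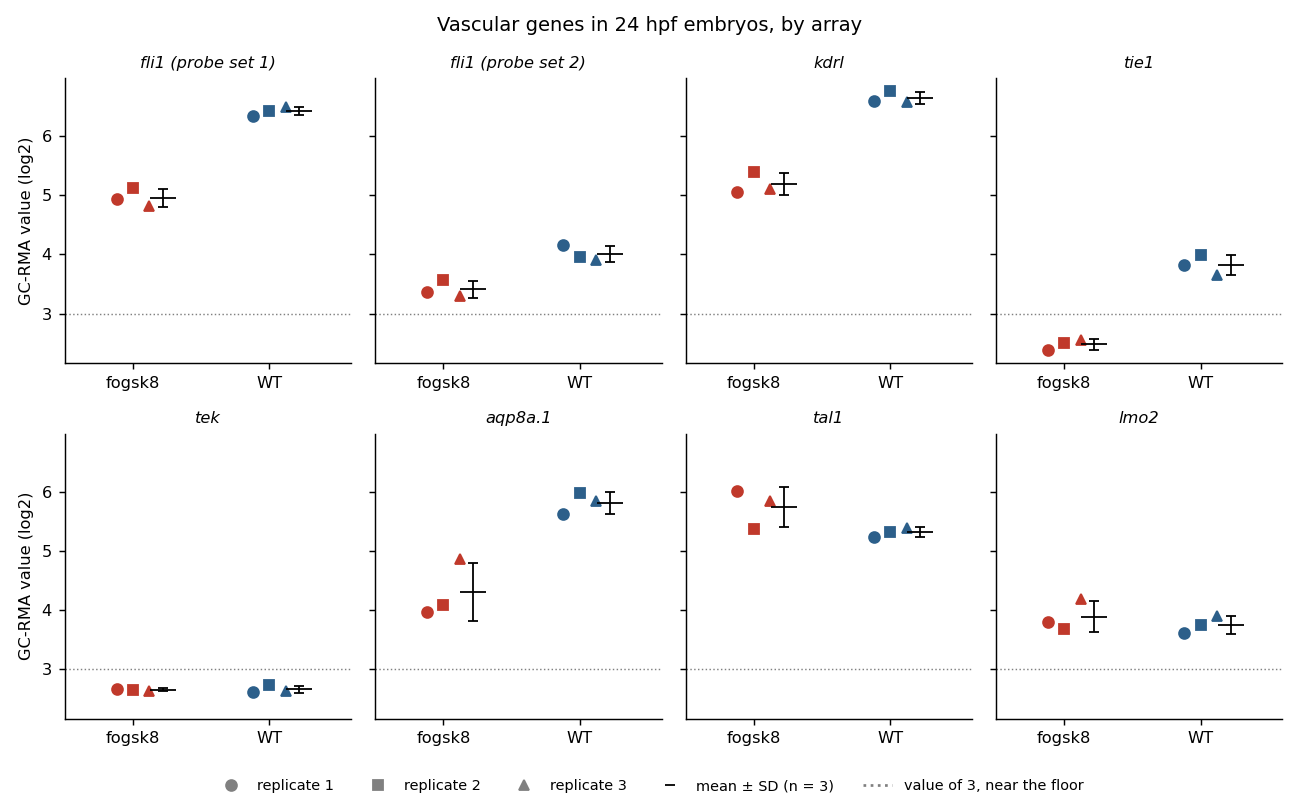
GC-RMA values (log2, y axis) of the 8 probe sets in the 3 fogsk8 and 3 WT samples, with 1 symbol per array, the mean ± SD of each group (n = 3) and a dotted line at 3, near the floor. The fogsk8 samples lie below the WT samples for both fli1 probe sets, kdrl, tie1 and aqp8a.1, the groups overlap for tal1 and lmo2, and tek lies under the line on all 6 arrays.

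Among the receptors, kdrl, which encodes the main VEGF receptor of zebrafish endothelium, was lower in all mutant samples. It read 5.06, 5.40 and 5.10 in fogsk8 and 6.59, 6.75 and 6.58 in WT. The groups stood apart by more than 1, and within each of them replicate 2 was the highest. The means were 5.19 ± 0.18 in fogsk8 and 6.64 ± 0.097 in WT (SD, n = 3 each), a log2 fold change of −1.45 (SE 0.11), or 2.74-fold lower.

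The transcript of tie1, an orphan receptor that modulates angiopoietin signalling and is needed for vessel integrity, was close to the floor in the mutants. It read 2.38, 2.51 and 2.56 in fogsk8, against 3.82, 3.99 and 3.65 in WT. All 3 fogsk8 values were below 3 and all 3 WT values above it. The means were 2.49 ± 0.092 in fogsk8 and 3.82 ± 0.17 in WT (SD, n = 3 each), a log2 fold change of −1.33 (SE 0.10), or 2.52-fold lower. As the fogsk8 values are near the floor, this fold is a compressed one.

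Its relative tek, which encodes the angiopoietin receptor Tie2, was near the floor on every array. It read 2.67, 2.66 and 2.63 in fogsk8 and 2.62, 2.73 and 2.64 in WT, with complete overlap. Both group means were 2.66 (SD 0.021 in fogsk8 and 0.059 in WT, n = 3 each), and the log2 fold change was −0.0087 (SE 0.056). A change of tek was not detectable at this signal, and these values do not show that its transcript was the same in both groups.

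The Ets factor gene fli1, whose regulatory region drives the widely used endothelial reporter lines of zebrafish, was read by a pair of probe sets. The brighter read 4.93, 5.11 and 4.82 in fogsk8, against 6.34, 6.42 and 6.49 in WT. Its means were 4.95 ± 0.15 in fogsk8 and 6.42 ± 0.072 in WT (SD, n = 3 each), a log2 fold change of −1.47 (SE 0.093), or 2.76-fold lower. This difference is many times the spread within either group.

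The dimmer fli1 probe set moved in the same direction by less. It read 3.37, 3.57 and 3.29 in fogsk8 and 4.16, 3.96 and 3.91 in WT, again without overlap. Its means were 3.41 ± 0.14 in fogsk8 and 4.01 ± 0.13 in WT (SD, n = 3 each), a log2 fold change of −0.60 (SE 0.10), or 1.52-fold lower, which is under the 2-fold minimum. Which transcripts each of the fli1 probe sets reads was not examined here.

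The water channel gene aqp8a.1, expressed in zebrafish endothelium, had the largest fitted change of the 8 probe sets and also the widest spread. It read 3.96, 4.08 and 4.86 in fogsk8, against 5.61, 5.98 and 5.84 in WT. The groups did not overlap, but fogsk8 replicate 3 lay 0.56 above the mean of its group. The means were 4.30 ± 0.49 in fogsk8 and 5.81 ± 0.19 in WT (SD, n = 3 each), a log2 fold change of −1.51 (SE 0.26), or 2.86-fold lower. The call was lost without fogsk8 replicate 2 (log2 fold change −1.40), without WT replicate 2 (−1.43) and with the methods' t-test after adjustment. Without fogsk8 replicate 3 the log2 fold change was −1.79.

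The progenitor factor genes tal1 and lmo2 did not follow fli1, kdrl, tie1 and aqp8a.1. For tal1, which encodes a bHLH factor that blood and endothelial progenitors require, the 3 fogsk8 samples read 6.01, 5.37 and 5.84 and the 3 WT samples 5.23, 5.32 and 5.39. The groups met at their edges, since fogsk8 replicate 2 (5.37) was below WT replicate 3 (5.39). The means were 5.74 ± 0.33 in fogsk8 and 5.31 ± 0.083 in WT (SD, n = 3 each), a log2 fold change of 0.43 (SE 0.17), or 1.34-fold.

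For lmo2, which encodes a LIM-only adaptor that joins Tal1 to GATA factors, the groups overlapped as well. It read 3.80, 3.68 and 4.19 in fogsk8 and 3.61, 3.74 and 3.90 in WT. The means were 3.89 ± 0.27 in fogsk8 and 3.75 ± 0.15 in WT (SD, n = 3 each), and the log2 fold change was 0.14 (SE 0.15). In both groups the highest value came from replicate 3.

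**Figure D2:**
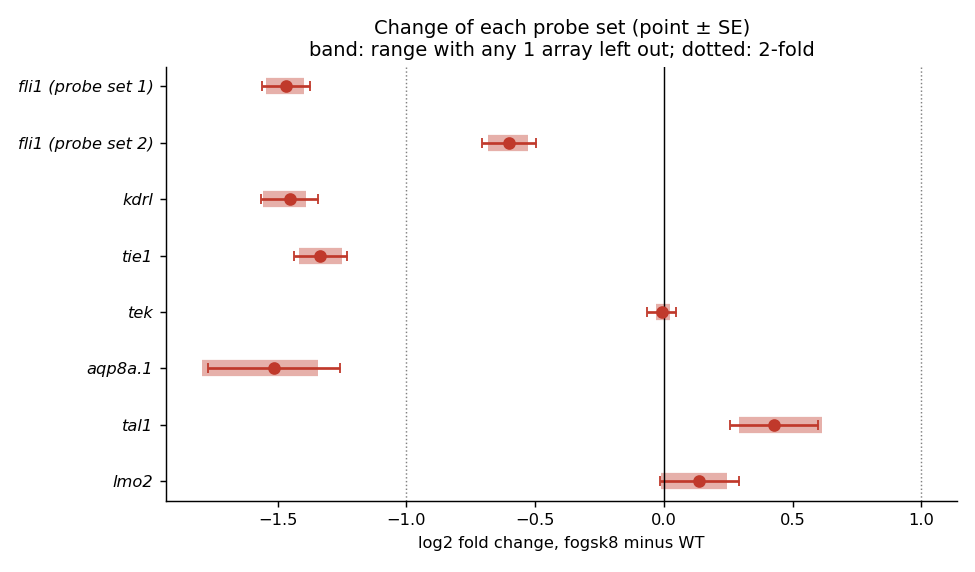
log2 fold change of each probe set, fogsk8 minus WT (x axis; point ± SE), with a band over the values found when any 1 of the 6 arrays is left out and dotted lines at 2-fold. The bands of kdrl (−1.56 to −1.39), tie1 (−1.42 to −1.25) and the brighter fli1 probe set (−1.55 to −1.40) stay beyond 2-fold lower, while that of lmo2 (−0.012 to 0.24) spans 0.

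When each array was left out in turn, the log2 fold change ranged from −1.79 to −1.35 for aqp8a.1 and from −0.68 to −0.53 for the dimmer fli1 probe set. It ranged from 0.29 to 0.61 for tal1 and from −0.029 to 0.025 for tek. With replicate 3 of both groups left out, it was −1.36 for the brighter fli1 probe set, −1.44 for kdrl, −1.46 for tie1 and −1.78 for aqp8a.1. The lower values of these 4 genes were thus present without the replicate that stood apart.

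**Figure D3:**
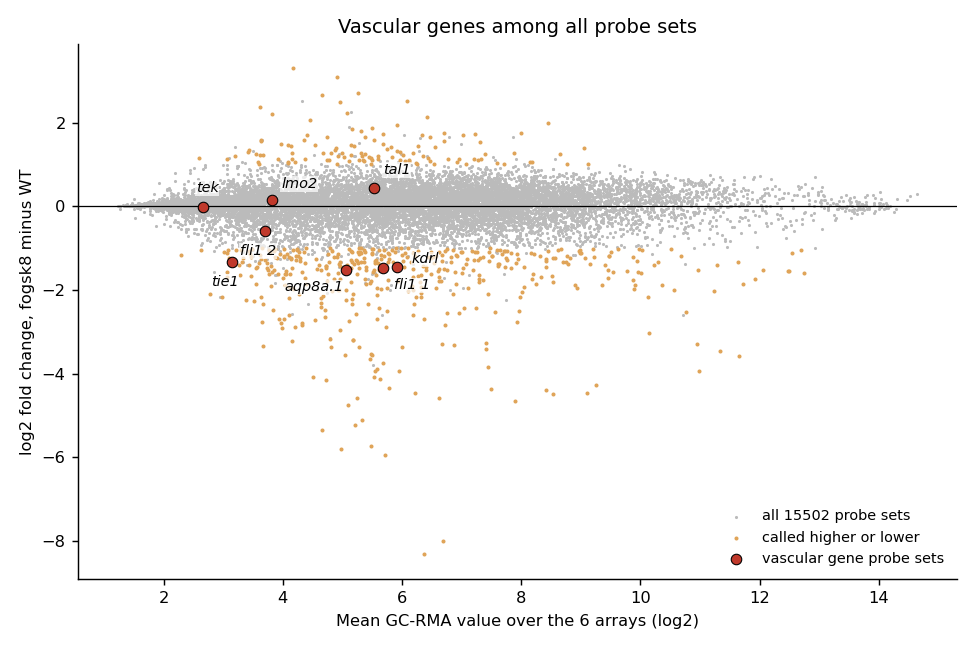
log2 fold change of all 15502 probe sets, fogsk8 minus WT (y axis), against the mean GC-RMA value over the 6 arrays (log2, x axis), with probe sets called higher or lower in orange and the 8 vascular probe sets labelled. The 4 called vascular probe sets lie between −1.51 and −1.33, and tek lies at the left among dim probe sets.

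Against the whole array, the 4 called probe sets lay in the low tail and the progenitor factors did not. Of all probe sets, 1.53% had a lower log2 fold change than aqp8a.1, 1.63% than the brighter fli1 probe set, 1.68% than kdrl and 1.98% than tie1. The share was 7.65% for the dimmer fli1 probe set, 32.9% for tek, 65.7% for lmo2 and 88.9% for tal1. All fogsk8 samples were below all WT samples for 5 of the 8 probe sets, and above them for none, where 13.8% and 23.3% of all probe sets showed these patterns. These places describe the genes as picked and are no test of them.

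The log2 fold changes of tal1 and lmo2 were also subtracted from those of the vessel genes, which restates the values above. Relative to tal1, the change was −1.89 on the log2 scale for the brighter fli1 probe set, −1.88 for kdrl, −1.76 for tie1 and −1.94 for aqp8a.1. Relative to lmo2 it was −1.60, −1.59, −1.47 and −1.65 for the same genes in the same order. The dimmer fli1 probe set gave −1.03 relative to tal1 and −0.74 relative to lmo2. For tek, near the floor on every array, the values were −0.44 and −0.15. An offset shared by all probe sets of an array cancels in these differences, but a scaling that depends on the level does not. Values near the floor, as of tie1 in fogsk8, compress them too. The differences set changes and not levels against each other.

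Other genes were read from lists that left out the 7 genes, together named the wider vascular genes here. These lists hold endothelial and vascular factor genes and also blood stem cell and haemangioblast genes, Tal1 and Lmo2 partners and aquaporins. Of 150 listed genes, 78 had a probe set that named them alone, and 13 of them fell in fogsk8 by limma while none rose. Of all genes, 3.20% were called lower and 0.898% higher by this rule. At an unadjusted p under 0.05 by limma and with no minimum fold, 33 were lower and 8 higher, where 14.8% of all genes were lower and 21.7% higher. With the methods' t-test without adjustment 6 were higher, where 18.4% of all genes were. The median log2 fold change of the 78 was −0.081, against 0.057 over all genes. The other 65 genes met the rule in neither direction. Of the 13, gata1a, klf1, lmo1, lmo3 and aqp3a stand in none of the endothelial or vascular factor lists. The lists were written with results of these data known, so nothing is read from these counts beside the shares over all genes.

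**Figure D4:**
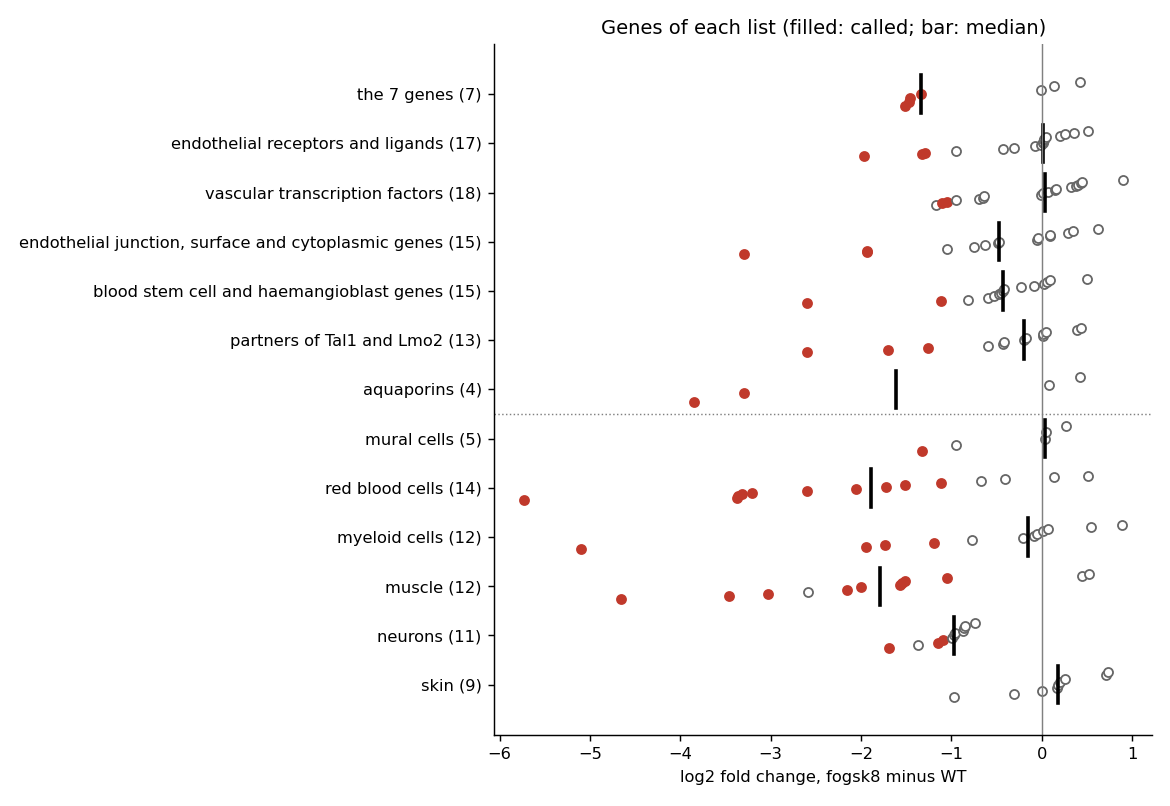
log2 fold change, fogsk8 minus WT (x axis), of each gene in the 7 genes, the 6 wider vascular lists (above the dotted line) and the lists of 6 other cell types (below it), with the number measured in parentheses, filled points for called genes and a bar at the median. The medians of red blood cell (−1.89) and muscle (−1.79) genes lie lower than those of the 6 vascular lists, and skin genes (0.18) lie near 0.

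Of 17 endothelial receptors and ligands, 3 fell and the median was 0.012. Apelin (apln), a secreted ligand made by sprouting endothelium, read 2.82, 3.33 and 3.39 in fogsk8 and 4.78, 5.41 and 5.26 in WT (log2 fold change −1.97, SE 0.22, limma adjusted p = 0.00557). Its receptor gene aplnra differed by 0.017 (SE 0.10, limma adjusted p = 0.917), so the ligand fell and the receptor was not called. The gene jag1b was lower by less than 2-fold (−0.95, SE 0.20, limma adjusted p = 0.0282). Of the 17 genes, 4 were near the floor in both groups.

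The receptor genes notch3 and s1pr1 fell too. The notch3 transcript, which encodes a Notch receptor of the mural cells that wrap vessels and also of neural progenitors, read 5.58, 5.31 and 5.18 in fogsk8 and 6.56, 7.03 and 6.44 in WT (log2 fold change −1.32, SE 0.19, limma adjusted p = 0.00984). The sphingosine-1-phosphate receptor gene s1pr1 read 6.30, 6.74 and 6.85 in fogsk8 and 7.71, 7.66 and 8.39 in WT (log2 fold change −1.29, SE 0.25, limma adjusted p = 0.0223). Its call was lost without fogsk8 replicate 1, fogsk8 replicate 2 or WT replicate 1, with an adjusted p of up to 0.0608 by limma, although another s1pr1 probe set gave −1.97 (SE 0.19, limma adjusted p = 0.00376). The semaphorin and VEGF co-receptor gene nrp2b (log2 fold change 0.36, limma adjusted p = 0.375) and the arterial ligand gene efnb2a (0.029, limma adjusted p = 0.842) were not called.

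Of 18 vascular transcription factor genes, 2 fell, and the median was 0.040. The gene prox1a, for a homeobox factor of lymphatic endothelium that is also expressed in lens, liver and muscle, read 3.23, 3.28 and 3.16 in fogsk8 and 4.48, 4.29 and 4.23 in WT (log2 fold change −1.11, SE 0.083, limma adjusted p = 0.00202). The fli1 relative fli1rs, also named fli1b, read 2.59, 2.57 and 2.52 in fogsk8 and 3.83, 4.0 and 3.01 in WT (log2 fold change −1.05, SE 0.26, limma adjusted p = 0.0461). All fogsk8 values of fli1rs were near the floor, and WT replicate 3 (3.01) lay just above the limit of 3. The fli1rs call held when WT replicate 3 was left out and was lost when any of the other 5 arrays was. The adjusted p lay between 0.00275 and 0.127 by limma.

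The COUP-TF family genes of the vascular factor list, read here in whole-embryo RNA and not in veins alone, were lower by less than 2-fold. The log2 fold change of nr2f1a was −0.95 (SE 0.11, limma adjusted p = 0.00557) and that of nr2f2 was −0.69 (SE 0.12, limma adjusted p = 0.016). Also lower by less than 2-fold was hey2 (−0.65, SE 0.14, limma adjusted p = 0.0308), whereas foxc1b was higher by less than 2-fold (0.89, SE 0.16, limma adjusted p = 0.019). Neither klf2b (0.32, SE 0.23, limma adjusted p = 0.391) nor klf2a (0.40, SE 0.20, limma adjusted p = 0.24) was called. Erg, ets2 and sox17, other vascular factor genes, were near the floor in both groups.

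Of 15 endothelial junction, surface and cytoplasmic genes, 3 fell and the median was −0.48. The gene with the largest change was aqp1a.1, a water channel of endothelium and red blood cells. It read 4.75, 4.59 and 5.71 in fogsk8, against 7.98, 8.17 and 8.80 in WT (log2 fold change −3.30, SE 0.36, limma adjusted p = 0.00497). As for aqp8a.1, fogsk8 replicate 3 was the highest mutant sample, and it was still below every WT sample.

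The other genes called in this list were egfl6 and plvapb. The transcript of egfl6, for a secreted EGF-domain protein of the matrix, read 6.72, 7.23 and 7.30 in fogsk8 and 8.93, 9.04 and 9.08 in WT (log2 fold change −1.93, SE 0.16, limma adjusted p = 0.00257). The gene plvapb, for a protein of the diaphragms in capillary pores, read 4.71, 5.21 and 6.11 in fogsk8 and 6.91, 7.16 and 7.79 in WT (log2 fold change −1.94, SE 0.41, limma adjusted p = 0.0294). The plvapb call was lost without any single array other than fogsk8 replicate 3, with adjusted p between 0.0242 and 0.087 by limma. The chemokine gene cxcl12b was lower by less than 2-fold (−0.75, SE 0.096, limma adjusted p = 0.00794), and pdcd10b was higher by less than 2-fold (0.63, SE 0.11, limma adjusted p = 0.0163). Neither crip2 (−0.48, limma adjusted p = 0.161) nor pdcd10a (0.29, limma adjusted p = 0.0718) was called.

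Of 15 blood stem cell and haemangioblast genes, 2 fell and the median was −0.43. Both encode factors of the red cell lineage, and both read near the floor in all fogsk8 samples, so that their folds are compressed. The gene gata1a, the master regulator of red cells, read 2.83, 2.87 and 2.70 in fogsk8 and 5.21, 4.94 and 6.06 in WT (log2 fold change −2.60, SE 0.29, limma adjusted p = 0.00519). The gene klf1, whose mammalian counterpart activates globin genes, read 2.54, 2.53 and 2.46 in fogsk8 and 3.98, 3.29 and 3.61 in WT (log2 fold change −1.11, SE 0.17, limma adjusted p = 0.013). Without WT replicate 1 the klf1 change was −0.94, under 2-fold, and without replicate 3 of both groups its limma adjusted p was 0.0804.

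The other genes of this list were not called. Runx1, itga2b, ikzf1, nfe2, rag1 and spi1b were near the floor in both groups, so that 6 of the 15 were read with little signal. The genes meis1b (−0.60, SE 0.12, limma adjusted p = 0.0249) and gata3 (0.50, SE 0.11, limma adjusted p = 0.0322) passed the adjusted p and not the 2-fold minimum. So did myb (−0.81), ikzf1 (−0.53) and nfe2 (−0.42), which makes 4 lower and 1 higher in this list. The LIM-only gene lmo4a was not called (−0.43, limma adjusted p = 0.0774).

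Of 13 measured genes for partners and relatives of Tal1 and Lmo2, 3 fell, and the median was −0.20. Besides gata1a, which stands in both lists, these were the lmo2 relatives lmo1 and lmo3, LIM-only genes known from the nervous system. The lmo1 transcript read 2.21, 1.96 and 2.45 in fogsk8 and 3.93, 3.80 and 4.0 in WT (log2 fold change −1.70, SE 0.14, limma adjusted p = 0.00234), a fold compressed by fogsk8 values near the floor. The lmo3 transcript read 5.29, 5.18 and 5.01 in fogsk8 and 6.35, 5.98 and 6.93 in WT (log2 fold change −1.26, SE 0.25, limma adjusted p = 0.0236). The lmo3 call was lost without any fogsk8 replicate or without WT replicate 1 (limma adjusted p up to 0.0743), and its other probe sets changed by −0.91 and −0.47.

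The partner genes of highest mean level among those not called were ldb1a, ssbp3b and tcf12. The log2 fold change was −0.18 for the LIM-binding gene ldb1a (SE 0.067, limma adjusted p = 0.136), −0.20 for its stabilizer gene ssbp3b (SE 0.13, limma adjusted p = 0.358) and 0.018 for the E protein gene tcf12 (SE 0.080, limma adjusted p = 0.888). These changes were under 2-fold, as were those of most genes, and do not show equal levels in the groups. The gene lmo4b was lower by less than 2-fold (−0.59, SE 0.12, limma adjusted p = 0.0258). At an unadjusted p under 0.05 by limma, 7 of the 13 genes of this list were lower and 1 higher. Of all genes, 14.8% were lower and 21.7% higher by this rule.

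Of the 4 other aquaporin genes measured, aqp1a.1 and aqp3a fell, while aqp12 (log2 fold change 0.43, SE 0.14, limma adjusted p = 0.101) and aqp9b (0.079, SE 0.062, limma adjusted p = 0.431) were not called. The gene aqp3a, for a channel that passes water and glycerol in epithelia, read 4.92, 4.85 and 6.79 in fogsk8 and 8.88, 8.92 and 10.31 in WT (log2 fold change −3.85, SE 0.66, limma adjusted p = 0.0171). Replicate 3 was the highest in both groups, and the call was lost without fogsk8 replicate 1 or 2 (limma adjusted p = 0.0556 and 0.0537). The 3 aquaporin genes that were lower in fogsk8, aqp8a.1 included, each had fogsk8 replicate 3 as their highest mutant sample.

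**Figure D5:**
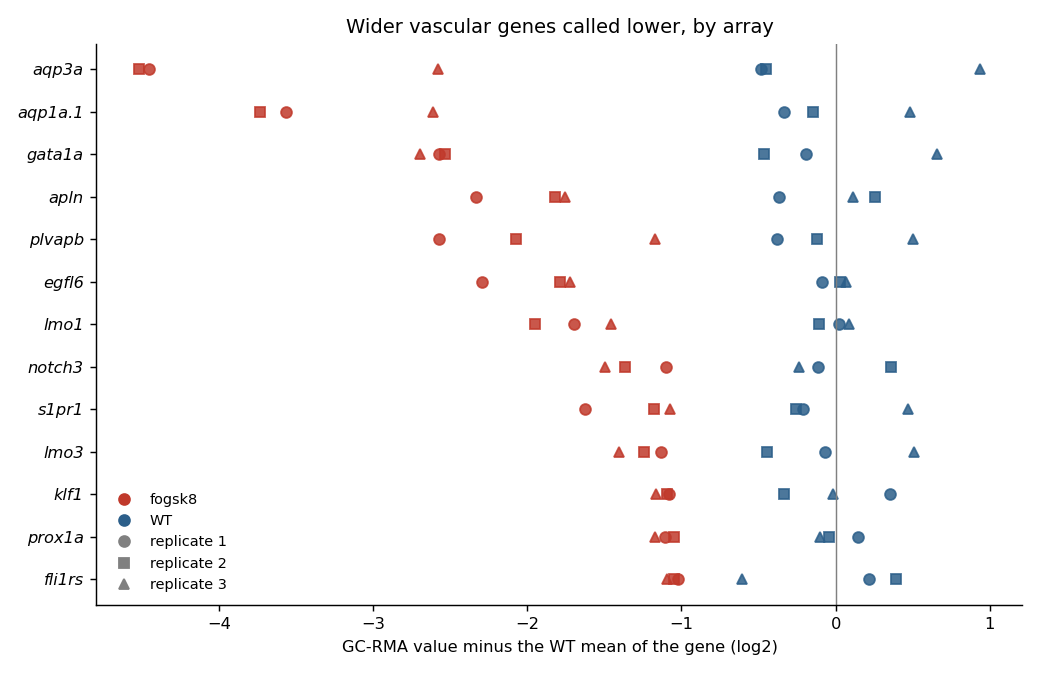
GC-RMA values minus the WT mean of the same gene (log2, x axis) for the 13 wider vascular genes called lower, with fogsk8 in red, WT in blue and 1 symbol per replicate number. All fogsk8 points of each gene lie left of its WT points, and fogsk8 replicate 3 lies rightmost among the mutants for 7 of the 13, by most for aqp3a.

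Marker genes of several other cell types were lower in the same mutant samples, most of all those of red blood cells and muscle. Of 63 measured marker genes of mural cells, red blood cells, myeloid cells, muscle, neurons and skin, 27 fell by limma and none rose, where 3.20% of all genes were called lower and 0.898% higher. The genes gata1a, klf1 and notch3 are among these 27 and also among the 13 wider vascular genes. At an unadjusted p under 0.05 by limma and with no minimum fold, 40 were lower and 6 higher, where 14.8% of all genes were lower and 21.7% higher, and 5 were higher with the methods' t-test without adjustment. The median log2 fold change of the 63 was −0.97, lower than the −0.081 of the wider vascular lists. Their part in the values of fli1, kdrl, tie1 and aqp8a.1 was not tested. These lists too were written with results of these data known, so nothing is read from their counts beside the shares over all genes.

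Blood cells share progenitors with endothelium. Of 14 red blood cell genes, 10 fell, the median log2 fold change was −1.89, and the mean level of the list was 5.56 to 5.75 in fogsk8 and 7.38 to 8.16 in WT on the log2 scale. The log2 fold change was −5.73 for slc4a1a, the anion exchanger of the red cell membrane (limma adjusted p = 0.00207), −3.38 for alas2, the first enzyme of haem synthesis in red cells (limma adjusted p = 0.00207), −3.36 for sptb, a spectrin (limma adjusted p = 0.00255), and −3.32 for cahz, a carbonic anhydrase (limma adjusted p = 0.00591). The red blood cell genes not called were nt5c2l1 (−0.67), blvrb (−0.41), ank1a (0.14, near the floor) and hbbe2 (0.51, limma adjusted p = 0.506). Of 12 myeloid genes, 4 fell, with a mean level of 3.95 to 4.06 in fogsk8 and 4.72 to 4.89 in WT. The 4 were the lysozyme gene lyz (−5.10, limma adjusted p = 0.00127), srgn (−1.95), lcp1 (−1.74) and ptpn6 (−1.20), but the median of the list was −0.15, and cebpb (0.89, limma adjusted p = 0.00379) and cebpa (0.54, limma adjusted p = 0.0138) were higher by less than 2-fold. The folds of slc4a1a and lyz are compressed, since both read near the floor in all fogsk8 samples. The srgn call was lost without fogsk8 replicate 1 or 2 (limma adjusted p up to 0.0562) and the lcp1 call without WT replicate 1 or 2 (limma adjusted p up to 0.065). The genes mpx, csf1ra, ptprc and spi1b were near the floor in both groups. For coro1a the brightest probe set was not called (−0.77, limma adjusted p = 0.0899), but another was lower (−2.57, limma adjusted p = 0.000647). With the mean of all probe sets of a gene, 5 myeloid genes were called lower.

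Most muscle genes and some neuron genes fell as well, and no skin gene was called in either direction. Of 12 muscle genes, 9 fell, among them the fast troponin genes tnnt3b (−4.65, limma adjusted p = 0.0332) and tnnt3a (−3.03) and the myosin light chain genes mylpfa (−3.46, limma adjusted p = 0.00325) and mylz3 (−2.16), with a mean level of 8.66 to 9.61 in fogsk8 and 10.7 to 11.3 in WT. The myogenic factor genes myod1 (0.44) and myog (0.53) were not called. The parvalbumin gene pvalb2 missed the call by its adjusted p (log2 fold change −2.59, SE 0.70, limma adjusted p = 0.0587). The tnnt3b call was lost without any single array other than fogsk8 replicate 3 (limma adjusted p up to 0.0976), and the tnnt3a call without fogsk8 replicate 1 or 2 (limma adjusted p up to 0.0521). Of 11 neuron genes, 3 fell, the proneural factor genes neurog1 (−1.69, limma adjusted p = 0.00119) and ascl1a (−1.15, limma adjusted p = 0.000994) and the G protein gene gng3 (−1.09, limma adjusted p = 0.0457), with a mean level of 5.94 to 6.26 in fogsk8 and 7.02 to 7.31 in WT. The gng3 call was lost whichever array was left out (log2 fold change −1.28 to −0.79, limma adjusted p up to 0.124). The median of the neuron list was −0.97. At an unadjusted p under 0.05 by limma, 10 neuron genes were lower and none higher, where 14.8% of all genes were lower and 21.7% higher. Of 9 skin genes none was called by limma, 4 were higher and 2 lower at an unadjusted p under 0.05, and the mean level was 10.5 to 10.6 in fogsk8 and 10.4 to 10.5 in WT. The skin genes tp63 (−0.97, limma adjusted p = 0.00347) and cdh1 (−0.31, limma adjusted p = 0.0257) were lower by less than 2-fold. Higher by less than 2-fold were krt8 (0.71, limma adjusted p = 0.00446) and krt18a.1 (0.73, limma adjusted p = 0.00189). Of the 5 mural cell genes measured, notch3 was the gene called, and acta2, tagln and desmb were near the floor in both groups. The remaining mural gene, desma, was lower by less than 2-fold (−0.95, SE 0.18, limma adjusted p = 0.0218).

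The genes whose values over the 6 arrays most resembled those of the 4 called genes were not from the wider vascular lists. These lists hold 78 of the 8793 genes, so a few picks would seldom include one, and nothing is read from this. The vessel and progenitor genes picked at the start were not candidates. Their Pearson r with one another ranged from −0.871, for tal1 and the dimmer fli1 probe set, to 0.993, for kdrl and the brighter fli1 probe set. For the brighter fli1 probe set the most alike genes were rrm1, a subunit of ribonucleotide reductase (Pearson r = 0.9988), and vim, the intermediate filament vimentin (r = 0.9985). For kdrl they were elavl3, an RNA-binding protein of neurons (r = 0.9967), and ek1, an Eph-like receptor kinase (r = 0.9967). For tie1 they were thoc2 of the mRNA export complex (r = 0.9981) and the tubulin gene tubb4b (r = 0.9980), and for aqp8a.1 ndufs1 of respiratory complex I (r = 0.9980) and itpkca, an inositol phosphate kinase (r = 0.9944). The 6 points of each r share the split into 3 fogsk8 and 3 WT samples, which sets most of it, and each gene was the best of all named genes, so these values are a description only.

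The sizes of these changes differed although the patterns were alike. The log2 fold change was −1.19 for rrm1 and −1.20 for vim, against −1.47 for fli1. It was −0.34 for thoc2 and −0.36 for tubb4b, against −1.33 for tie1, and −0.20 for ndufs1 against −1.51 for aqp8a.1. For the kdrl-like genes it was −1.15 for ek1 and −0.78 for the elavl3 probe set in question, against −1.45 for kdrl.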

How the data were processed

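Biotinylated cRNA of 3 fogsk8 and 3 WT sibling samples was hybridized to 1 Affymetrix Zebrafish Genome Array each, and samples were grouped by genotype from the labels. The authors deposited log2 values made with GC-RMA (version not given in the sources used here), a method that removes background by the GC content of each probe, scales the arrays to one another and summarizes probe sets. Values near the floor of this method compress changes. Scanner files were not used here.

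The 15502 probe sets other than 115 controls (15617 in all) were fitted by genotype with lmFit and eBayes of limma 3.58.1 (R 4.3.3). Benjamini-Hochberg adjustment ran over all of them, and calls needed an adjusted p below 0.05 with a change of 2-fold or more. The platform annotation gave 10795 probe sets 1 symbol, 135 several and 4572 none. Of these, 10711 were matched by Entrez ID to RefSeq (GRCz12tu, names only), and 1 symbol was updated. Where several probe sets named 1 of the 8793 genes, that of highest mean was used. List symbols were matched through RefSeq synonyms. The 7 genes and the lists were chosen with earlier results of these data known.

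Named genes were all 7 genes, every called gene of the wider lists and, where fewer than 4 were called, up to 3 others of highest mean, up to 4 called genes of largest change per other cell type, the 2 genes of highest Pearson r for each probe set spanning over 1, and supt5h. Genes named as near the floor (under 3) and other probe sets of called genes were added after their values were seen. So were myb, hey2, foxc1b, klf2a, pdcd10b, jag1b, lmo4b, coro1a, cebpa, cebpb, myod1, myog, pvalb2, desma, nt5c2l1, blvrb, ank1a, hbbe2, tp63, cdh1, krt8 and krt18a.1. Replicates are biological per the labels, and their number (3 per group) limits precision. Alternatives were the methods' t-test (adjusted or not), a mean-variance trend, dropping the minimum fold, median centring, repeated quantile normalization, leaving out probe sets under 4 in both groups, blocking on the replicate number, leaving out each array, the mean of a gene's probe sets and, added after the data were seen, replicate 3 of both groups left out. Deviations from the group means correlated at 0.12, 0.291 and 0.394 between samples numbered 1, 2 and 3, all over 0.1, and the numbers come from the sample titles. They also correlated at 0.184 between fogsk8 replicate 2 and WT replicate 1 and at 0.148 between fogsk8 replicate 1 and WT replicate 2, so these values do not settle a pairing of replicates 1 and 2. Promoter and protein sequences were not analysed here. The limma step was tested on simulated data. Python 3.11.15, pandas 2.3.3 and matplotlib 3.10.9 made the figures.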

Additional observations from a re-analysis of the deposited data

How the results depend on the processing

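The count of 4 called genes among the 7 held with a mean-variance trend, both scalings, the replicate block and the methods' t-test without adjustment. It was 3 with the methods' t-test after adjustment, which lost aqp8a.1, and 3 with dim probe sets left out, which dropped tie1, tek and lmo2, and it ranged from 3 to 4 with each array left out (0 to 0 called higher). The methods' t-test after adjustment called 64 probe sets higher and 254 lower, against 116 and 445 in the limma fit, and 6 of the wider vascular and 13 of the other cell type genes lower. Without a minimum fold, 1376 of the 15502 probe sets were higher and 1239 lower. Of the 78 wider genes, 23 were lower and 3 higher by this rule. Of the 63 other cell type genes, 35 were lower and 4 higher. The share of all genes by this rule was not computed, so nothing is read from these counts. With each array left out, 102 to 119 probe sets were higher and 338 to 456 lower, the wider lists had 8 (without fogsk8 replicate 1) to 12 lower and 0 to 1 higher, and the other cell types 19 to 31 lower and 0 to 0 higher. With the replicate block, which treats same-numbered samples as pairs, 132 probe sets were higher and 511 lower, and 4 of the 7 genes, 14 wider genes and 29 other cell type genes were lower. The mean of all probe sets gave lmo3 a log2 fold change of −0.88. The median log2 fold change of all probe sets was 0.0552, and 0.094 with median centring. Signal limits tek on every array and tie1, fli1rs, gata1a, klf1, lmo1, slc4a1a and lyz in fogsk8.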
